A study of Homo sapiens with 2 samples.

Results

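The acetylated gene ends that 2 libraries of an erythroid leukaemia cell line had in common are described here. They were chosen from the measured peaks: a peak of the ERG library entered when it overlapped a peak of the Vector library by at least 1 bp and lay within 1 kb of either end of a protein-coding gene. Of the 18973 ERG-library peaks on chromosomes 1 to 22, X and Y, 5211 met both conditions (27.5%), and they touched the ends of 6120 of 20037 protein-coding genes. They made up 61.6% of the 8466 ERG-library peaks at gene ends and 66.0% of the 7901 shared peaks. Because a peak in each library was required, fragment numbers, peak widths and the ratio between the libraries are given as descriptions of the set.

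The study profiled acetylation of lysine 27 of histone H3 (H3K27ac) in F36P, an established human erythroid leukaemia line. The Vector group carried the empty retroviral plasmid MSCV-PIG, and the ERG group carried MSCV-PIG-AM-ERG, which adds ERG, a transcription factor of the ETS family; what AM stands for was not established. Both groups were kept in puromycin at 1 µg/ml for 4 days, and both libraries were made from chromatin fixed with 1% formaldehyde and cut with micrococcal nuclease. The series asks how ERG holds back erythroid maturation and names HDAC7 as a candidate target. There was 1 library per group, so no difference below has a replicate check, and each compares these libraries rather than the conditions. The interval of a single peak's ratio covers counting error only. Intervals of shares and medians treat peaks or genes as independent draws. No interval covers variation between replicates.

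H3K27ac is placed by the acetyltransferases EP300 and CREBBP and marks promoters and enhancers in use. Around an active start site the mark sits on the nucleosomes that flank a nucleosome-depleted gap, where transcription factors and RNA polymerase II bind. Many human promoters of this kind are rich in CpG dinucleotides and serve genes that nearly every cell needs. Red cell precursors add regulators such as TAL1, KLF1 and GATA1, which drive globin, heme and membrane genes.

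The letters of some of these starts are shown first, because the starts differ in the motifs they hold. For each motif below, the gene of the set with most ERG-library fragments whose promoter window holds that motif is given, with a 30-base stretch read 5′ to 3′ along the gene's strand. The motif is in capitals, on either strand, and the sequences are from RefSeq, GRCh38.p14.
U2AF2, ETS (chr19:55654994-55655023, plus strand): gccggcggcggCCGGAAGTagccgaagcca
COMMD6, NRF1 (chr13:75549470-75549499, minus strand): tcgcgttctacGCATGCGCcttgcgccggt
ZC3H4, CRE (chr19:47113780-47113809, minus strand): gggttgtcgagTGACGTCAcctccgggctg
FIZ1, YY1 (chr19:55599664-55599693, minus strand): tgccctcacccAAGATGGCgcgggcctggc
ZNF136, NFY (chr19:12162954-12162983, plus strand): ccgaagctgtacCCAATcaggggcaccggg
ZNF433, SP/KLF GC box (chr19:12035747-12035776, minus strand): tcacggctgaggGGGCGGggcccggcgctt
HMGN2, E-box (chr1:26472388-26472417, plus strand): ttaaaccccgccCACGTGaccccagctggg
TAL1, GATA (chr1:47232353-47232382, minus strand): cgcggcagtgcCTTATCTctgcggcgcaca

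The first base of the ETS letters lay 30 bases before the U2AF2 start, that of the CRE letters 22 bases before the ZC3H4 start and that of the NRF1 letters 49 bases before the COMMD6 start. U2AF2 encodes a splicing factor and COMMD6 a COMM-domain protein. TAL1 encodes a basic helix-loop-helix regulator of blood formation, and its GATA letters began 36 bases before the start on the opposite strand.

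The 250 bases before the start are shown for 8 genes to which the results return: 2 zinc-finger genes of the strongest cluster (ZNF433, ZNF844), 2 erythroid regulators (TAL1, KLF1), the erythropoietin receptor and its kinase (EPOR, JAK2), the gene of highest ratio at well-counted peaks (MMAA) and a red cell gene of low ratio (SPTB). Capitals mark matches, on either strand, to any of the 12 motifs searched.
ZNF433 (chr19:12035680-12035929, minus strand): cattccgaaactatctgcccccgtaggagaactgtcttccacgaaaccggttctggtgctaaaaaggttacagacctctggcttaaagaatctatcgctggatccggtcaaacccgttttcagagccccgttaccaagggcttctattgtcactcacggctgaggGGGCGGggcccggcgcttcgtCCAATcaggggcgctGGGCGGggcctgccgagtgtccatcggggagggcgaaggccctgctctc
ZNF844 (chr19:12064481-12064730, plus strand): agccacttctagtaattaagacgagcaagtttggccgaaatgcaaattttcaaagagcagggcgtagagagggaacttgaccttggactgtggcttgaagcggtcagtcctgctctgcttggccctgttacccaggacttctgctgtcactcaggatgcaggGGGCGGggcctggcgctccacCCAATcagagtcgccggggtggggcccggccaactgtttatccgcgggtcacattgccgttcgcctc
TAL1 (chr1:47232336-47232585, minus strand): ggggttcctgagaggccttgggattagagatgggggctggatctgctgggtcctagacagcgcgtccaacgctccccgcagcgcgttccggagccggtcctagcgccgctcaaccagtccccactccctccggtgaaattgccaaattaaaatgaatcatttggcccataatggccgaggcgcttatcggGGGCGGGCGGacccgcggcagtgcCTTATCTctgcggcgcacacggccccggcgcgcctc
KLF1 (chr19:12887202-12887451, minus strand): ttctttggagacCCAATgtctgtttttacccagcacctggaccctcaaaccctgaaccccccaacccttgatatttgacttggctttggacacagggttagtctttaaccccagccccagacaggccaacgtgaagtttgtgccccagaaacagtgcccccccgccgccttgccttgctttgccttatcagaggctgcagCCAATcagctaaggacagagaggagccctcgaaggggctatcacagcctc
EPOR (chr19:11384315-11384564, minus strand): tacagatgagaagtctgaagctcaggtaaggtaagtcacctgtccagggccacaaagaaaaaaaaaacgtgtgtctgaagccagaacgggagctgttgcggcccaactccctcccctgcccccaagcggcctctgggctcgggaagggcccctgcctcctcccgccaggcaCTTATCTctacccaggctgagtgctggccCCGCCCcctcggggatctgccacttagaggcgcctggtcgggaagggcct
JAK2 (chr9:4984140-4984389, plus strand): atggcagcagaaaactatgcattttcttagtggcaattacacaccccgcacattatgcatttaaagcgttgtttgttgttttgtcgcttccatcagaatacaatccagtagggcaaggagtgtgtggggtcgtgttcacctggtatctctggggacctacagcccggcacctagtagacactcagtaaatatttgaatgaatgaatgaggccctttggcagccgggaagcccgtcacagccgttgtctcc
MMAA (chr4:145619135-145619384, plus strand): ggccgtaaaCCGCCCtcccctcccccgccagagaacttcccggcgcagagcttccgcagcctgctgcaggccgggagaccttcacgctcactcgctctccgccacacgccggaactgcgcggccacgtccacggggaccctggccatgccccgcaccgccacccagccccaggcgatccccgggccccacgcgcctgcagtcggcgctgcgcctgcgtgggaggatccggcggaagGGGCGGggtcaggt
SPTB (chr14:64879908-64880157, minus strand): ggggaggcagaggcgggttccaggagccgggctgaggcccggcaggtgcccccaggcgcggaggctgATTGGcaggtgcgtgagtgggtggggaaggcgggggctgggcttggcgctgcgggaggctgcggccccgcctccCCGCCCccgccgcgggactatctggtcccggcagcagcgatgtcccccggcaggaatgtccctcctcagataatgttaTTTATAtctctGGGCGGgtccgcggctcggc

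The windows of 300 bases at these starts ranged widely in CpG content. TAL1 held 30 CpG dinucleotides and MMAA 36, whereas JAK2 held 11 and KLF1 held 6. In the 250 bases before the start, both zinc-finger genes carried CCAAT and GGGCGG letters and KLF1 carried CCAAT alone. Those of JAK2 matched none of the 12 motifs.

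Where strand was known, nearly every peak of the set lay near the start of a gene. Strand was known for each nearby gene at 4266 of the 5211 peaks. Of these, 4207 (98.6%, 95% exact binomial interval 98.2 to 98.9) lay within 1 kb of a start, and 229 of the 4207 lay near a far end as well. The remaining 59 of the 4266 lay at far ends only, and 47 of them were near no start listed in RefSeq for any gene. Their median level was like that of the starts, at 61 ERG-library and 31 Vector-library fragments against 62 and 28. Among far ends near no listed start, PDIK1L, a kinase gene, had 154 and 85 fragments. STAT3, a signal transducer of cytokine receptors, had 125 and 57. ZFP36, which encodes an mRNA-destabilising protein, had 106 and 38.

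Summits sat just inside the gene. Over the 4300 peaks with a listed start, 76.7% (75.4 to 78.0) of ERG-library summits were on the gene side, at a median of 189 bp from the start (middle 50% from 53.5 to 277 bp). Summits more than 100 and up to 300 bp inside made up 50% of the set, against 9.28% at the same distance before the start and 9.72% within 100 bp of it. Vector-library summits had the same arrangement, with 79.4% inside at a median of 207 bp. The 2 summits were on the same side of the start at 91.3% of peaks. Gene-end peaks of the ERG library without a Vector partner were less concentrated, with 69.5% (67.6 to 71.3) of 2470 summits inside and 41.9% more than 100 and up to 300 bp inside.

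**Figure D1:**
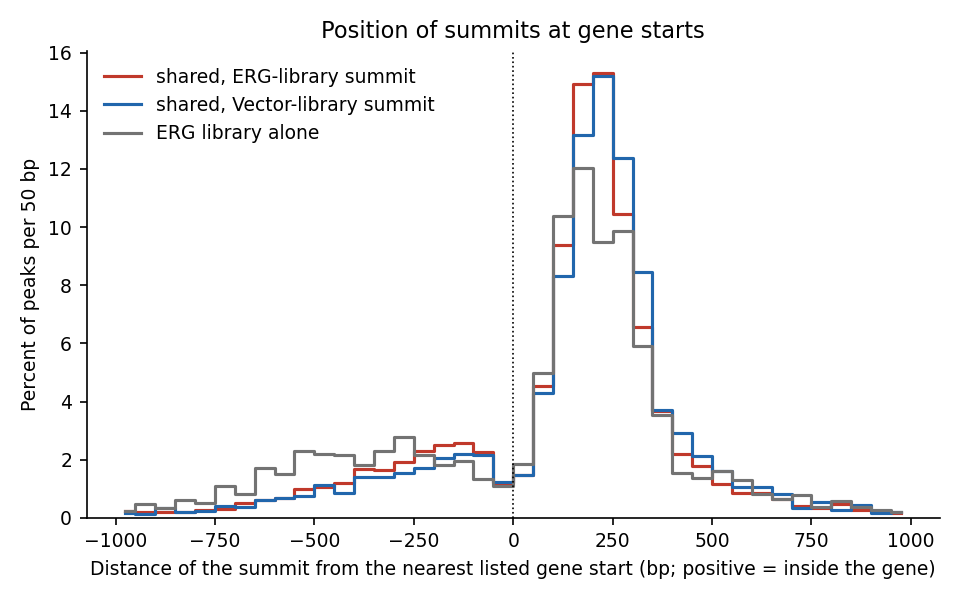
Position of peak summits relative to the nearest listed gene start, in bp, with positive values inside the gene; lines give the percent of peaks per 50 bp for ERG-library and Vector-library summits of shared gene-end peaks (4300) and for gene-end peaks of the ERG library alone (2470). Both libraries of the shared set peak more than 100 bp inside the gene and dip at the start.

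The peaks reached further into the gene than before it, and the ERG-library peak was the longer on both sides. It extended a median of 698 bp into the gene and 288.5 bp before the start, whereas the Vector-library peak extended 498 bp into the gene and ended 3 bp inside it (-3 bp before the start). The start itself was covered by the peak in 73.3% of cases for ERG and 38.5% for Vector. At 604 peaks between divergent starts of 2 genes, medians were 69 and 29.5 fragments and 1054 bp, against 61 and 28 fragments and 1014 bp at 3584 peaks with a listed start of 1 gene. The strongest divergent pairs were UCHL3 with COMMD6 (283 and 102 fragments), a deubiquitinase gene beside a COMM-domain gene, and U2AF1L4 with PSENEN (272 and 110), a splicing-factor gene beside a subunit of gamma-secretase.

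Levels are given as fragments at the summit, the whole number of DNA fragments that the deposited fold and p-value of a peak imply. In the ERG library the set had a median of 62 fragments (middle 50% from 43 to 90, range 10 to 474) over a local background of 10.0, and in the Vector library 29 (21 to 40, range 9 to 210) over 4.95. ERG-library peaks were wider, with medians of 1016 and 566 bp, and the ERG-library peak was the wider at 4953 of 5211 peaks. The deposited fold over local background differed less, with medians of 5.66 and 4.93. Gene-end peaks of the ERG library with no partner were weaker and narrower, at 30 fragments, 575 bp and a fold of 4.03. The lowest background at any peak, taken here as the genome-wide background, was 2.31 (ERG) and 1.60 (Vector) fragments. Depth may therefore differ with the group, and its part in these differences was not tested.

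The order of the genes was much the same in both libraries. Across the 5211 peaks, fragment numbers correlated with a Spearman rho of 0.84 and, on the log2 scale, a Pearson r of 0.85; these are correlations across peaks, which share libraries and local background. Of the 500 strongest peaks of each library, 356 were in common. Widths were ordered less alike, with a rho of 0.51.

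The strongest peaks belonged to Krüppel-type zinc-finger genes of chromosome 19, which encode DNA-binding repressors and are close copies of each other, so that reads may have been placed on more than 1. ZNF136 was highest in both libraries, with 474 ERG-library and 210 Vector-library fragments (hg38 chr19:12163007-12164051). ZNF433 followed with 397 and 177, ZNF844 with 349 and 129, and ZNF625 with 309 and 123. ZNF627 and ZNF700 were also among the 10 strongest, at 288 and 137 and at 287 and 106. The other 4 were HMGN1, a nucleosome-binding protein gene, with 293 and 119, USP48, a deubiquitinase gene, with 286 and 103, UCHL3 with COMMD6 at 283 and 102, and U2AF2 with CCDC106 at 277 and 128. Ranking by the deposited fold gave other genes: ALG13, for protein glycosylation, led with a fold of 16.0, followed by PKIA with 15.2.

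Those zinc-finger genes fell in a stretch of raised level that was noticed after the values were seen. From KEAP1 to ZNF44 on chromosome 19 (1.8 Mb), 39 peaks had medians of 130 and 56 fragments over backgrounds of 27.3 and 14.2, whereas 292 peaks between it and the far end of the chromosome had 78.5 and 36.5 over 14.5 and 7.91. A second stretch, from SMARCA2 to UHRF2 on chromosome 9 (4.5 Mb), had 11 peaks with medians of 166 and 74 over 27.1 and 12.7, against 50 and 25 over 8.44 and 4.52 on the rest of the chromosome beyond it. The first holds EPOR, the erythropoietin receptor gene, with 95 and 51 fragments at its own start and 139 and 56 at the peak it shares with SWSAP1. It also holds SMARCA4, a chromatin remodeller gene, with 241 and 113. JAK2, which encodes the kinase bound by that receptor, lies in the second with 272 and 132, together with the transcription factor gene RFX3 at 260 and 114 and the remodeller gene SMARCA2 at 274 and 95. These stretches held 18 of the 100 strongest peaks by ERG-library fragments and 17 of 100 by Vector-library fragments, but 0 of the 100 with the highest deposited ERG-library fold. Background rose with the signal there in both libraries. DNA copy number was not measured, and its part was not tested.

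**Figure D2:**
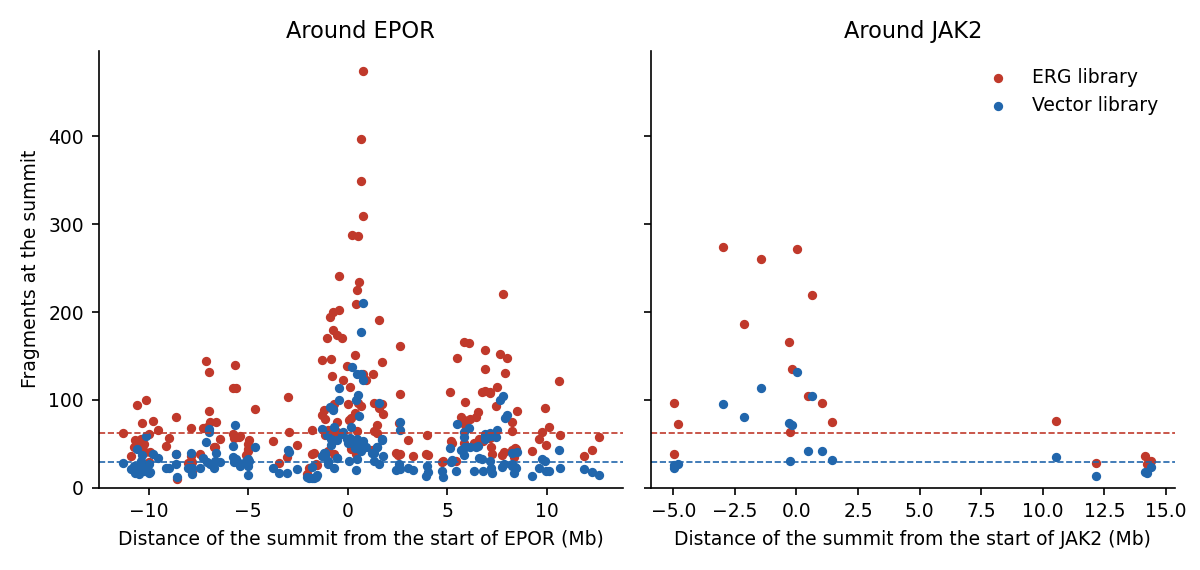
Fragments at the summit of shared gene-end peaks against the distance from the start of EPOR (left) and JAK2 (right), in Mb, for the ERG and Vector libraries; dashed lines are the medians of the whole set, 62 and 29. Within 1 Mb, 35 of 40 points around EPOR and 6 of 6 around JAK2 lie above both medians, and ZNF136 is the highest at 474 and 210.

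Chromosomes otherwise differed modestly. Median ERG-library and Vector-library fragments ran from 42 and 18 on chromosome X and 43 and 21 on chromosome 5 to 75 and 36 on chromosome 19 and 75.5 and 34 on chromosome 8. Genes with a shared peak made up 17.7% of the genes of chromosome X and 37.1% of those of chromosome 3.

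The widest peaks were at genes of several kinds. FOXO3, a forkhead factor active in red cell maturation, had an ERG-library peak of 3428 bp over 3 Vector-library peaks, with 85 and 35 fragments. ACTG1, cytoplasmic actin, had 3241 bp, LIMD2 3148 bp, ZC3H4 3102 bp, and SPN, which encodes the leukocyte sialoglycoprotein CD43, 3040 bp.

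Most of the listed genes that every cell needs had a shared gene-end peak, beside 30.5% of all protein-coding genes. Translation initiation factors had one at 28 of 31 genes, chaperonin and heat shock genes at 18 of 21, proteasome subunits at 25 of 31, Mediator subunits at 22 of 30 and cytosolic tRNA synthetases at 13 of 20. EIF1, a start-codon selection factor, had 219 and 90 fragments in the ERG and Vector libraries. HSPA8, the constitutive heat shock protein, had 230 and 69. PSMA7, a core proteasome subunit, had 166 and 86 at a peak that also lay at SS18L1. YARS1, which charges tyrosine tRNA, had 202 and 84 at a peak also at S100PBP. MED29 of the Mediator had 139 and 66 at a peak also at PAF1 and SAMD4B. Coverage was lower for DNA replication genes (19 of 36) and RNA polymerase II subunits (6 of 12). CDC45 with UFD1 led the first with 129 and 47, and POLR2L with TSPAN4 the second with 127 and 60. Coverage was also lower for general transcription factors (14 of 31, led by TAF12 with 132 and 34) and cholesterol synthesis genes (7 of 20). IDI1 with WDR37 led the last with 109 and 46. A listed gene's peak may also lie at the end of another gene, here and in the lists below.

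Erythroid regulators were among the better covered lists and had strong, wide peaks. Of 24 genes, 15 had a shared peak, with list medians of 100 and 47 fragments and 1486 bp, against 64, 29 and 1039 bp over all genes with a shared peak. TAL1 had 211 and 89 fragments over 2567 bp, and LYL1, its close relative, 143 and 56. CBFA2T3, a corepressor of the TAL1 complex, had 132 and 65, and LDB1, the bridging protein of that complex, 113 and 49. NFE2, which activates globin genes, had 107 and 56, GFI1B, a repressor needed for red cells and platelets, 103 and 36, and MYB, a progenitor regulator, 100 and 43. STAT5A and STAT5B, which act below the erythropoietin receptor, shared a peak of 98 and 47. KLF1, the erythroid Krüppel-like factor, had 72 and 46 at a peak inside the gene (chr19:12885689-12886229) and 62 and 46 at the peak over its start (chr19:12886555-12887555). SOX6, a repressor of embryonic globin, had 70 and 25. KLF3 had 119 and 60, TRIM58 46 and 21 and E2F2 40 and 18. GATA1, LMO2, KLF13, ZBTB7A, E2F4 and HES6 had an unshared ERG-library peak at a gene end. By the rule for a relative difference given below, 0 of the 15 strongest peaks passed, but the peak over the KLF1 start was relatively higher in the Vector library (ratio 1.35, 0.906 to 2.02); that call ends at a fold of 2 and against the genome backgrounds. List values are those of a gene's strongest peak: 12 listed genes had several shared peaks, and KLF1 was the 1 with a call at another peak.

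Heme synthesis was covered nearly whole, whereas globin was not. Shared peaks lay at 10 of 12 heme genes. Among them UROD had 145 and 48 fragments, UROS 115 and 45 and TMEM14C 57 and 28. PPOX, whose peak also lay at USP21, had 56 and 42, ABCB10 54 and 41, FECH 51 and 41 and ALAS1 40 and 30. SLC25A38 had 38 and 19 and CPOX 36 and 26. The heme genes named encode enzymes of the pathway or mitochondrial carriers that serve it. ALAS2, whose product starts the pathway in red cell precursors, had an unshared ERG-library peak, and ALAD had none. Of 10 globin genes only HBG2 (37 and 48) and HBQ1 (21 and 22) had a shared peak, and HBB had an unshared ERG-library peak. HBG2 and HBG1 are near-identical copies, so reads may have been placed on either. Red cell membrane and surface genes had 11 of 23, led by STOM (154 and 55), a membrane scaffold, TFRC (141 and 83), the transferrin receptor, and EPOR.

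Genes that write, read or remove acetyl marks had shared peaks at 12 of 24. The acetyltransferase genes EP300 (190 and 95), KAT5 (152 and 53), KAT7 with FAM117A (140 and 59) and KAT6A (40 and 18) were in the set. KAT2B (27 and 25) was in the set as well. The deacetylase genes HDAC4 (109 and 42), HDAC2 (104 and 59), HDAC6 (86 and 23) and HDAC1 (68 and 30) were also in the set. So were the bromodomain genes BRD9 with TRIP13 (78 and 36) and BRD3 (60 and 34). HDAC7, named in the title of the series, had no gene-end peak in the ERG library, as was the case for KAT2A and HDAC9. CREBBP had an unshared ERG-library peak.

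Few genes of other tissues had a shared peak, although some had an unshared one. Shared peaks lay at 0 of 20 endothelial genes and 0 of 20 liver genes, a count that leaves shares of up to 16.8% within the interval. Myeloid, lymphoid, neuronal and fibroblast lists had 1 of 20 each, namely SPI1 (78 and 49), which encodes the ETS factor PU.1, RAG1 (36 and 20), DLX1 (73 and 41) and FBN1 (37 and 30). Unshared ERG-library peaks lay at 8 of 20 myeloid, 4 of 20 endothelial, 3 of 20 liver, 1 of 20 lymphoid, 0 of 20 neuronal and 0 of 20 fibroblast genes, among them MPO, the myeloperoxidase gene, and PECAM1, an endothelial adhesion gene. As a check of the label, 6 of 13 erythroid markers had a shared peak (among them KLF1, TAL1, EPOR, HBG2 and TFRC) and 2 an unshared ERG-library peak (GATA1, ALAS2), while markers of T and B cells, epithelium, fibroblasts and endothelium had 0 of 5, 0 of 4, 0 of 3 and 0 of 4. Unshared ERG-library peaks lay at 1 T and B cell marker (CD79A) and 1 endothelial marker (PECAM1).

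**Figure D3:**
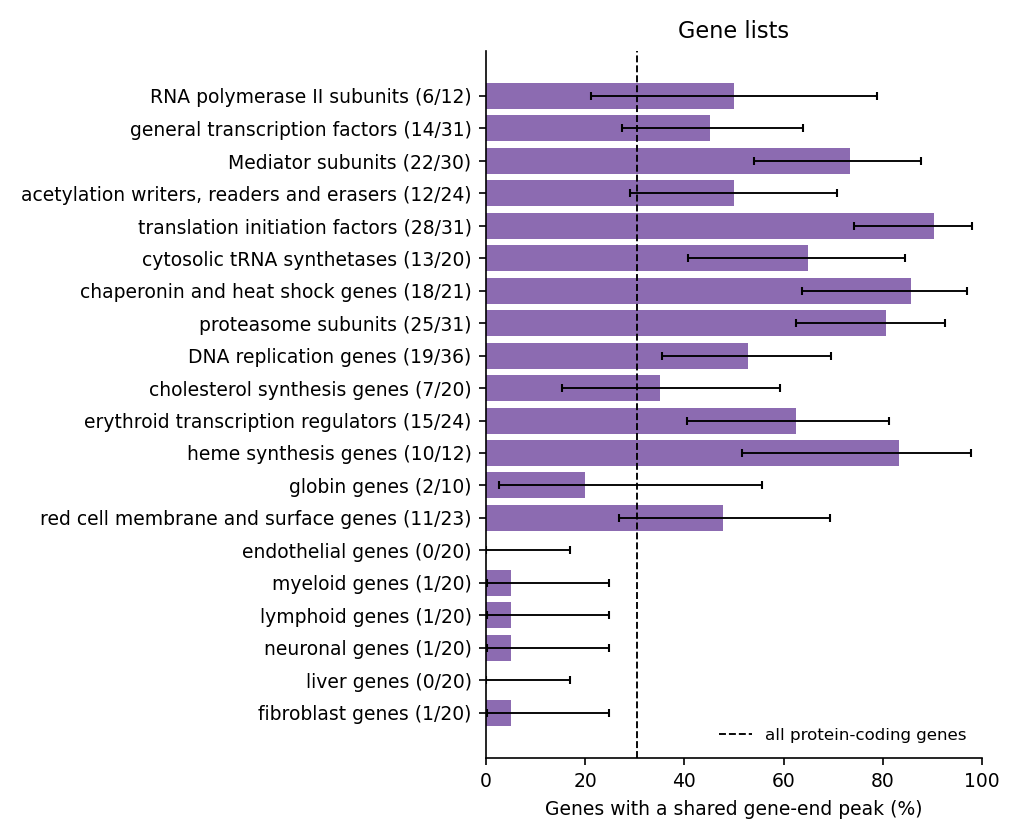
Percent of the genes of each list with a shared gene-end peak, with the numbers in brackets and exact 95% binomial intervals as bars; the dashed line is the 30.5% of all protein-coding genes. Translation, chaperone, heme and proteasome genes lie above the line, and the lists of other tissues at or near 0.

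Relative to the other shared peaks, gene ends had somewhat more ERG-library signal. The median ratio of ERG-library to Vector-library fragments was 2.14 (2.12 to 2.16) in the set and 1.88 (1.85 to 1.91) at the 2690 shared peaks away from gene ends, and 2.07 over both. The width ratio was 1.58 at gene ends and 1.38 elsewhere. The central 80% of gene-end ratios lay between 1.49 and 2.96, and 47 peaks had fewer fragments in the ERG library. A peak was said to be relatively higher in 1 library when its ratio was at least 1.5-fold from 2.07 and the exact 95% interval of the ratio did not reach 2.07.

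By that rule 255 peaks of the set were relatively higher in the ERG library, against a background of 4.78% of all shared peaks, and the set's own share was 4.89%. Relatively higher in the Vector library were 155, against a background of 6.16%, and the set's share was 2.97%, compared with 12.3% at shared peaks away from gene ends. Most of the set, 4801 peaks or 92.1%, passed in neither direction. The split depends on the scaling: set against the ratio of genome backgrounds, 1.44, 2037 peaks were relatively higher with ERG and 13 with Vector, or 99.4% in the first direction instead of 62.2%. At a fold of 2 the counts were 50 and 53.

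**Figure D4:**
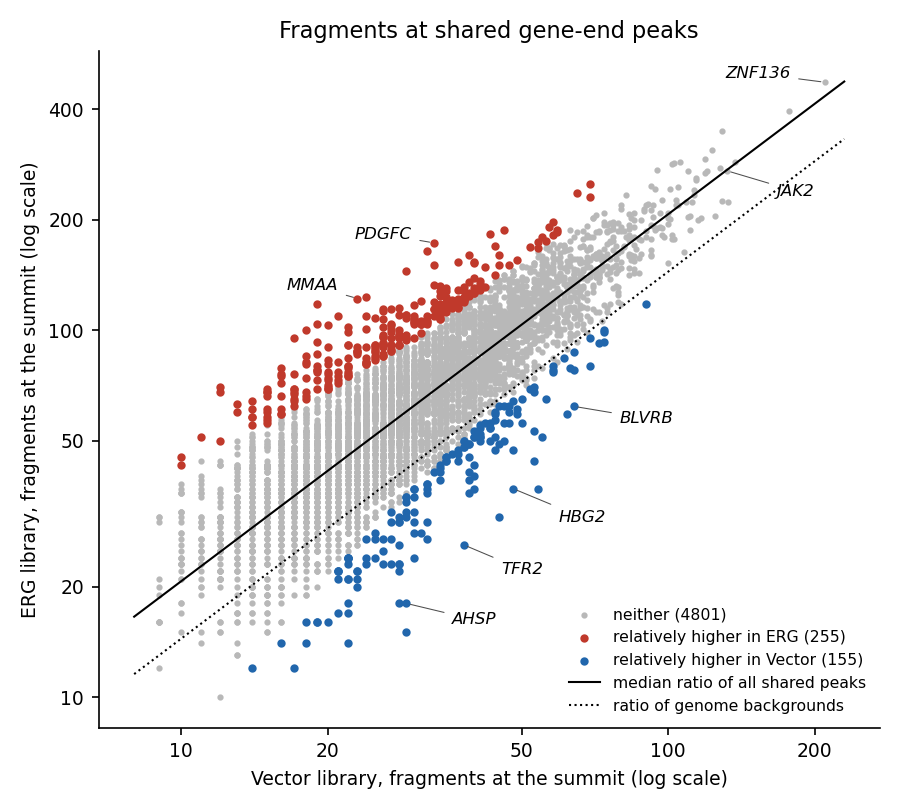
Fragments at the summit in the ERG library (vertical) against the Vector library (horizontal), both axes logarithmic, for the 5211 shared gene-end peaks; the solid line is the median ratio of all shared peaks, 2.07, and the dotted line the ratio of genome backgrounds, 1.44. Red points (255) and blue points (155) passed the rule for a relative difference, with MMAA and PDGFC among the red and TFR2, HBG2 and AHSP among the blue.

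The highest ratios, among the 4132 peaks with at least 20 fragments in each library, were at genes of varied roles. MMAA, a mitochondrial gene for handling vitamin B12, had 122 ERG-library and 23 Vector-library fragments, a ratio of 5.30. PDGFC, a growth factor gene, had 173 and 33, GLYCTK, a glycerate kinase gene, 109 and 21, GOSR2, a Golgi transport gene, 103 and 20, and PTRHD1 with CENPO 123 and 24. RASGRP2 with PYGM had 164 and 32. SHMT2, the mitochondrial serine hydroxymethyltransferase gene, had 145 and 29, CSTF2T 102 and 22, ZBTB45 151 and 33 and RAB11A 109 and 24. The summits of the 2 libraries lay 604 bp apart at SHMT2, 269 at GOSR2 and at most 173 at the rest. All 10 passed the rule. Listed genes that passed in this direction were EIF2S1 with ATP6V1D (79 and 16), HSPA8 and FEN1 with TMEM258 (99 and 22). MARS1 with ARHGAP9 (139 and 40), TARS1 (104 and 31), MED1 (61 and 14), MED21 (51 and 11) and TAF12 also passed. So did GTF2B (79 and 22) and HDAC6. All 10 of these listed genes kept the call against the genome backgrounds, and 4 kept it at a fold of 2 (EIF2S1, FEN1, MED1 and MED21).

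The lowest ratios among the same 4132 peaks were at genes of mixed roles, all 10 called toward the Vector library. TFR2, the second transferrin receptor, expressed in liver and erythroid cells, was lowest with 26 ERG-library and 38 Vector-library fragments, a ratio of 0.684 (0.399 to 1.16). HBG2, the gamma globin gene, had 37 and 48, a ratio of 0.771 (0.488 to 1.21). GBGT1, a glycosyltransferase of the Forssman blood group, had 22 and 28, and CD59, which shields red cells from complement, 27 and 32. The other 6 were CDC16 (37 and 54), SEMA4C (31 and 45), SLC25A1 with CLTCL1 (24 and 30), STX2 (23 and 28), FAM89A (23 and 28) and ACP5 (44 and 53). The summits of the 2 libraries lay 618 bp apart at SEMA4C, 354 at FAM89A and 345 at STX2, and at most 130 at the rest. The intervals of TFR2, HBG2, GBGT1 and CD59 all include 1, so none of the 4 had fewer ERG-library fragments beyond counting error, although all lay below the common ratio of 2.07.

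Some further genes with roles in red cells were relatively higher in the Vector library; they were picked out after their values were seen and stand for no list. The listed membrane and surface genes had a median ratio of 2.10 with 1 of 11 called. AHSP, the chaperone of alpha globin, had 18 and 29 fragments, SPTB, the erythroid spectrin beta chain, 17 and 22, and HBQ1, the theta globin gene, 21 and 22. BLVRB, a reductase that degrades heme products and is abundant in red cells, had 62 and 64, and EIF2AK1, the kinase that slows translation when heme is short, 26 and 28. The summits of the 2 libraries lay 708 bp apart at AHSP, 573 at HBQ1, 493 at SPTB, 129 at BLVRB and 67 at EIF2AK1. The median distance in the set was 66 bp. Set against the genome backgrounds, AHSP kept its call and SPTB, HBQ1, BLVRB and EIF2AK1 did not. The lowest ratio of the whole set was at TNFRSF1B, a receptor for tumour necrosis factor, with 15 and 29. At the other end, FRAT1 had 118 and 19, the highest ratio of the set at 6.21, and KDM5A with CCDC77 had 95 and 17.

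As lists, heme genes had a lower median ratio than erythroid regulators. The median ratio was 1.69 over the 10 heme genes and 2.22 over the 15 regulators, beside 2.15 over all genes with a shared peak. FECH, which inserts iron into the ring (ratio 1.24, 0.808 to 1.92), PPOX, the step before it (1.33), and ABCB10, a mitochondrial transporter (1.32), passed the rule, while UROD (3.02) and UROS (2.56) lay above the common ratio without passing it. The 3 calls end at a fold of 2 and when ratios are set against the genome backgrounds, where UROD and UROS pass in the other direction instead. Both globin genes passed toward the Vector library (2 of 2), as did SPTB among 11 membrane genes. The summits of the 2 libraries lay 573 bp apart at HBQ1, 493 bp at SPTB and 130 bp at HBG2. The ratios of HBQ1 and SPTB therefore compare different positions. Of the 14 listed genes called toward the Vector library, HBG2 was the 1 that kept its call against the genome backgrounds, and 5 kept it at a fold of 2. Median ratios of the remaining lists were 2.16 for translation initiation (1 toward ERG, 0 toward Vector), 2.12 for chaperones (1 and 0), 2.14 for Mediator (2 and 0), 2.22 for tRNA synthetases (2 and 0), 2.38 for general transcription factors (2 and 0), 2.34 for replication (1 and 1), 2.24 for acetylation genes (1 and 1), 2.10 for membrane genes (0 and 1), 1.94 for the proteasome (0 and 2), 1.75 for cholesterol synthesis (0 and 2) and 1.5 for RNA polymerase II (0 and 1). The calls toward the Vector library there were PSMB5 (50 and 43), PSMD2 (41 and 39) and ACAT2 with SOD2 (51 and 40). LSS (38 and 32), POLR2C (14 and 18), GINS3 (12 and 14) and KAT2B were also called, and FBN1 passed among the fibroblast genes.

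Peak strength moved with the ratio. The median ratio was 1.20 at the 69 peaks with under 20 ERG-library fragments and 2.37 at the 1008 with at least 100, and by Vector-library fragments it went from 2.30 at the 319 weakest peaks to 2.06 at the 384 strongest; the ratio contains both numbers. Peaks relatively higher in the ERG library had medians of 97 and 27 fragments and those relatively higher in the Vector library 40 and 35. Their summits differed in place as well: 62.1% (55.3 to 68.6) of the former were inside the gene, against 75.7% (66.6 to 83.3) of the latter and 77.6% (76.2 to 78.8) of the rest.

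Starts with a shared peak were CpG-rich. Over 1 listed start per gene, 5062 starts had a shared peak within 1 kb, and their 300-base windows had a median GC content of 66.0% and an observed-to-expected CpG ratio of 0.880. Windows with a GC content of at least 50% and a CpG ratio of at least 0.6 made up 89.0% (88.1 to 89.8) of them. The share was 82.3% of 2458 starts with an unshared ERG-library peak, 41.5% of 8272 starts with no peak and 63.1% of all 15842 starts. Exceptions among the strongest were ZNF700 (287 and 106), JAK2 (272 and 132), whose sequence is printed above, FIZ1 (247 and 92) and GMFG (236 and 65). CpG-rich starts and the others had median ratios of 2.14 and 2.29.

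The ETS letters CCGGAAGT were commoner in shared windows than in windows without a peak. They were in 11.6% (10.7 to 12.5) of the shared windows, 10.9% of windows with an ERG-library peak alone, 1.43% of windows with no peak and 6.15% of all promoter windows. Among CpG-rich windows alone the shares were 12.3% with a shared peak and 2.71% with none. YY1 letters (AAGATGGC) were in 7.29% and 1.27% of windows with a shared peak and with none, with 3.86% over all. NRF1 letters (GCATGCGC) were in 6.84% and 2.02%, with 4.28% over all, CRE letters (TGACGTCA) in 4.19% and 1.44%, with 2.56% over all, and ZNF143 letters (CTACAATTC) in 0.790% and 0.157%, with 0.429% over all. Among CpG-rich windows these shares were 7.64% and 1.66% for YY1, 7.48% and 3.62% for NRF1, 4.51% and 2.51% for CRE and 0.777% and 0.175% for ZNF143. The E-box (CACGTG) was in 10.8% and 7.07%, with 8.82% over all, and in 11.4% and 10.0% of CpG-rich windows. All motifs were searched on both strands, and a match describes letters and not a bound site.

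CCAAT was somewhat commoner in shared windows, also among CpG-rich ones. For the remaining motifs the order depended on CpG content or was the reverse. The GC box (GGGCGG) was in 73.1% of shared windows and 44.9% of windows without a peak (58.3% of all), but among CpG-rich windows in 77.8% and 81.2%. CCAAT was in 37.3% and 35.0% (36.4% of all), and among CpG-rich windows in 36.4% and 31.3%. The TATA box (TATAAA) was in 4.94% and 14.3% (9.75% of all), AP-1 letters (TGACTCA) in 2.33% and 4.84% (3.62%), RUNX letters (TGTGGTT) in 2.37% and 4.49% (3.60%) and GATA letters (AGATAAG) in 0.988% and 3.07% (2.14%). Among CpG-rich windows these were 3.68% and 5.37% for TATA, 0.755% and 1.14% for GATA, 2.06% and 1.98% for AP-1 and 2.22% and 1.84% for RUNX, so the AP-1 and RUNX order did not hold there. TAL1 and EPOR, whose windows are printed above, were among the 50 shared starts with GATA letters.

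**Figure D5:**
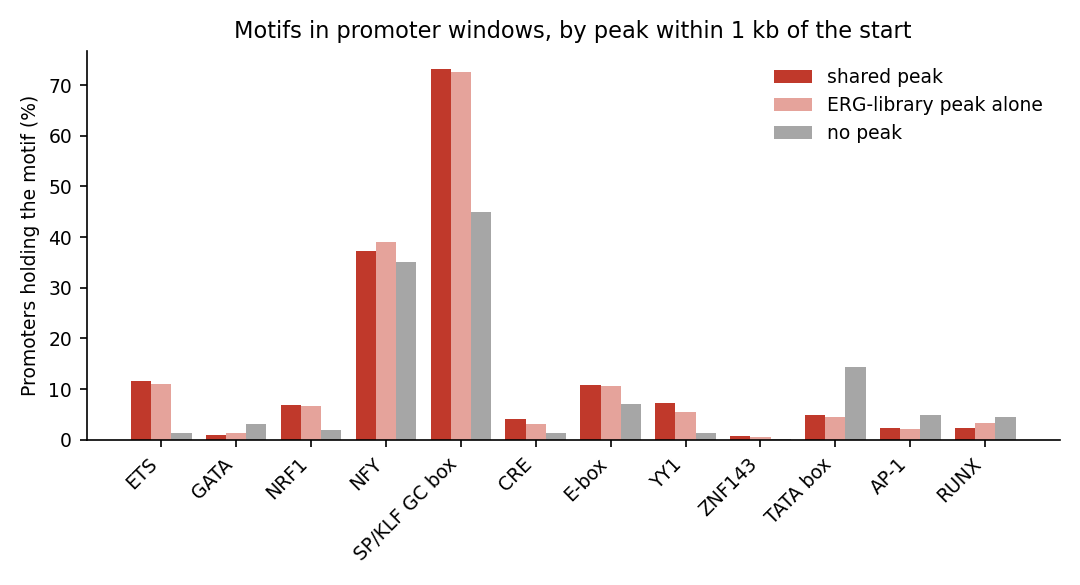
Percent of 300-base promoter windows that hold each of 12 motifs on either strand, for starts with a shared peak within 1 kb (5062), with an ERG-library peak alone (2458) and with no peak (8272). ETS letters are in 11.6%, 10.9% and 1.43%, and TATA letters in 4.94%, 4.43% and 14.3%.

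Motif positions differed between motifs. The first base of the ETS letters lay at a median of 42 bases before the start (position -42), with 63.7% of 655 matches in the last 100 bases before it. CRE letters lay at -59, with 71.6% of 218 matches there, whereas YY1 letters lay at 10 bases past the start, with 64.8% of 389 matches after it. Starts with and without the ETS letters had close medians: 67 and 62 ERG-library fragments, 30 and 29 Vector-library fragments, and ratios of 2.18 and 2.15. In each group 5.29% were relatively higher in the ERG library. ERG is itself an ETS factor, but only the exact letters CCGGAAGT were searched. The part of ERG in these values was not tested.

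Few members depended on the limits of the rule. Just inside the 1 kb limit, 28 peaks in the last 100 bp had medians of 69 and 35 fragments and a ratio of 2.16, and just outside it 18 shared peaks within the next 100 bp had 54 and 25.5 and a ratio of 2.23. Only 3 members overlapped their Vector-library partner by under 100 bp, and 9 gene-end peaks of the ERG library missed a Vector-library peak by at most 100 bp. Of the 5211 peaks, 5030 overlapped 1 Vector-library peak, 180 overlapped 2 and 1 overlapped 3, and 8 shared a partner with another member. The window held 1 gene at 4086 peaks, and at the others a level cannot be assigned to 1 of the genes.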

How the data were processed

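H3K27ac was profiled in 1 ERG and 1 Vector library. Per the submitters' processing notes, Bowtie2, MACS2, deepTools and hg38 were used; versions, input and duplicate handling are not given in the sources used here. Each deposited file is a MACS2 peak list of 1 library with the authors' score, fold (a ratio over local background), −log10 p-value and −log10 q-value; the lowest −log10 q-values were 1.31 and 1.32. Total depth is unknown.

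Fragments and background at each summit were solved from the deposited fold, as fragments plus 1 over background plus 1, and the Poisson p-value. Only whole fragment numbers were searched. The −log10 p-value recomputed from them met the deposited one at 100% of peaks of both libraries (relative error up to 0.0001). On data simulated with these formulas 100% of 2995 and 2998 numbers were recovered, which checks the solving step alone. Where a peak met several partners, the Vector-library peak with most fragments at the summit was used. Genes, starts, strand and promoter windows (250 bases before to 50 after a start) came from RefSeq, GRCh38.p14; starts were listed for 15842 of 20037 genes (79.1%). Intervals are exact (Clopper-Pearson for shares, conditional for ratios, order-statistic for medians), at 95%. No test between groups was possible.

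Members, gene lists (445 genes, all matched) and rules were chosen with earlier results of these data known. Named genes are the 10 strongest, the 10 highest and 10 lowest ratios at 20 or more fragments in each library, and the 5 widest. They also include the 3 strongest per list, with all members of the erythroid, heme, globin and acetylation lists up to 12. Per motif, the strongest gene outside chromosome 8 was named. Names beyond this were chosen after their values were seen. Alternatives tried were window, overlap, score limit, partner choice, summit distance, minimum fragments, scaling and fold. Python 3.11.15, numpy 2.4.6, pandas 2.3.3 and scipy 1.17.1 were used. Values of a few listed genes are not reported here, though the list counts include them.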

Additional observations from a re-analysis of the deposited data

How the results depend on the processing

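With windows of 500 bp and 2.5 kb the share of peaks at a gene start was 99.1% and 97.9%. With the upper 50% of each list by deposited score, 3099 peaks and 3714 genes were left, the start share was 99.2%, 115 peaks were relatively higher with ERG and 80 with Vector, and the width ratio was 1.49; fewer peaks enter by construction. With summits within 150 bp, 103 were relatively higher in the Vector library. Set against the genome backgrounds the counts were 2037 and 13, and at a fold of 2 they were 50 and 53. A named gene with no peak left in the set under a setting gave no value there and was not counted as lost. The 31 named genes followed were those of the 10 highest and 10 lowest ratios, with the heme and globin genes of the set. Of 274 values for them under these settings, 262 kept direction and call, 10 lost a call, 2 gained one and 0 reversed. Those changes were at ABCB10, CD59, FAM89A, FECH, HBQ1, PPOX, STX2, UROD and UROS, under the background scaling or the fold of 2. Most other settings changed which peaks entered and left a peak's fragments as they were, so calls could hardly change there. Among the 14 listed genes called toward the Vector library, 1 kept its call against the genome backgrounds. An alternative chosen after seeing the data, without the stretches on chromosomes 19 and 9, gave 254 and 149. No paired analysis was possible because each group has 1 library. Read depth limits the weak peaks: with 20 fragments or fewer the interval of a ratio is wide, as at SPTB (0.385 to 1.52).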
